A study of Homo sapiens with 5 samples.

Results

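The regions described here are 541 sites bound by MYC, and not called for HSF1, at promoters of long noncoding RNA (lncRNA) genes in OVCAR8 cells, out of 11756 sites called in both MYC libraries. They were chosen by measured values, namely the authors' MYC and HSF1 peak calls. The 2 MYC peak lists were merged wherever peaks overlapped by at least 1 bp, and intervals that held a peak of both libraries were kept. A site was included when it overlapped no peak of either HSF1 list, when its midpoint lay within 1 kb of a GENCODE lncRNA transcription start site, and when it lay farther than 1 kb from every protein-coding start site. OVCAR8 is an established human ovarian carcinoma line in which, per the study, MYC and HSF1 are both amplified. All libraries came from OVCAR8 cells fixed in 1% formaldehyde for 1 minute, and no treatment is stated for them. By their labels the libraries differed only in the antibody, with 2 HSF1 libraries, 2 MYC libraries and 1 IgG control. In CUT&RUN, an antibody brings a nuclease to its target protein and the DNA fragments that are released are sequenced. Nothing in the labels says that the 2 libraries of a factor came from separate cultures, so their spread may be technical.

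MYC is a transcription factor that pairs with MAX and binds a short DNA element called the E-box, most often CACGTG, at active promoters. HSF1 is the main regulator of the heat shock response and binds repeated GAA units. Long noncoding RNAs are transcripts without a protein product. Some of them are processed into microRNAs or carry small nucleolar RNAs (snoRNAs), which guide chemical modification of ribosomal RNA, in their introns. MYC is known for driving ribosome production, for activating the miR-17-92 microRNA cluster and for repressing let-7 microRNAs, which in turn can silence the MYC transcript.

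The following 60-base stretches of the GRCh38 genome are shown because they hold an E-box of a named site, with CACGTG in capitals and each strand that of the lncRNA gene. For sites with several E-boxes the one nearest to the strongest summit was taken, which is the summit of the library with the higher fold enrichment. They come from ELFN1-AS1 (chr7:1742050-1742109, minus strand), ENSG00000286874 (chr7:4642086-4642145, plus strand), MIR17HG (chr13:91349676-91349735, plus strand), MIRLET7IHG (chr12:62602763-62602822, plus strand), DANCR (chr4:52712984-52713043, plus strand), SNHG26 (chr7:22854291-22854350, plus strand), SNHG7 (chr9:136728274-136728333, minus strand), SNHG25 (chr17:64145842-64145901, plus strand), LINC-PINT (chr7:130941617-130941676, minus strand) and MIRLET7BHG (chr22:46085246-46085305, plus strand).
ELFN1-AS1: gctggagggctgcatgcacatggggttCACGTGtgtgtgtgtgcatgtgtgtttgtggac
ENSG00000286874: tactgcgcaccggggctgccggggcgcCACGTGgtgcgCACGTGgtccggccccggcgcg
MIR17HG: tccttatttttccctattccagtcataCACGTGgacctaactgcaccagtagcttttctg
MIRLET7IHG: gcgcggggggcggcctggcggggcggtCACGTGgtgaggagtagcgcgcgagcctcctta
DANCR: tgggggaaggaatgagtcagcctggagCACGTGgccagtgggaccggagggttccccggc
SNHG26: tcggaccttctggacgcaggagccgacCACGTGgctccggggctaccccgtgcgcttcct
SNHG7: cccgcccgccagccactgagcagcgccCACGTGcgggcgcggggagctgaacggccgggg
SNHG25: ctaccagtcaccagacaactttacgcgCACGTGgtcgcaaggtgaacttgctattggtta
LINC-PINT: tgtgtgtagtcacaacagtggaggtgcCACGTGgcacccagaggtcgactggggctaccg
MIRLET7BHG: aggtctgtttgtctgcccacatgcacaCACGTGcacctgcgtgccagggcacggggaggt

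Of the 11756 MYC sites, 2455 had their midpoint within 1 kb of a lncRNA start site. A protein-coding start site was also within 1 kb for 1724 of these, which left 731 sites, and 190 of the 731 overlapped an HSF1 peak. The remaining 541 sites were nearest to 513 lncRNA genes, on 23 chromosomes with 68 sites on chromosome 1. In all, 609 of 18866 annotated lncRNA genes had such a site within 1 kb of a start site, or 3.23%. Any MYC site called in both libraries was found at 13.4% of lncRNA genes and at 38.9% of protein-coding genes. An HSF1 peak overlapped 26.2% of all MYC sites. These shares describe what the calls fixed and carry no test. At the limits of the rule, the site farthest from a lncRNA start site was at 991 bp, at ENSG00000262521, and the nearest one left out was at 1001 bp, at LINC02952. The protein-coding limit separated ENSG00000289860 at 1008 bp from ENSG00000262362 at 999 bp. The shortest gap to an HSF1 peak was 41 bp, at LINC00842. A start site of a transcribed unprocessed pseudogene, a gene copy that is no longer functional, was within 1 kb of 37 of the 541 sites, where reads of near-identical copies cannot be told apart with certainty.

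Depth was similar, with 8265647 to 10084407 fragments per HSF1 or MYC library and 9306942 for IgG after removal of duplicates. MYC replicate 1 was the smallest library and had 25623 peaks on chromosomes 1 to 22, X and Y, whereas MYC replicate 2 had 13278. Fold enrichment, the authors' ratio of the summit pileup to the local background from IgG, was higher in replicate 1 at 441 of the 541 sites (81.5%) and at 82.1% of all 11756 MYC sites. With MYC replicate 1 alone the rule gave 1150 sites, and with MYC replicate 2 alone it gave 632. The 2 lists are therefore given side by side.

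MYC fold enrichment at the 541 sites had a median of 14.3 in replicate 1 (range 5.60 to 93.3) and of 10.35 in replicate 2 (range 4.60 to 78.0). The strongest site by the mean of both lists was at ELFN1-AS1, a transcript antisense to ELFN1, with a fold enrichment of 93.3 in replicate 1 and 78.0 in replicate 2. Its interval, chr7:1741325-1743183, held 4 E-boxes, and its summit in replicate 1 lay 90 bp inside the transcript. ENSG00000286874, an unnamed lncRNA gene whose nearest protein-coding start site is that of FOXK1, had 55.1 and 56.2. ENSG00000260100, whose nearest protein-coding start site is that of the zinc finger gene ZCCHC7, had 71.0 and 36.9. MIR17HG, the host transcript of the miR-17-92 cluster, had 55.4 and 44.6 at chr13:91348235-91349871. All 4 were far above the median in both libraries, and at ENSG00000260100 the 2 libraries differed most.

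The other sites among the 10 strongest were lower and ranged from 33.4 to 42.2 in replicate 1 and from 20.2 to 36.4 in replicate 2. They lay at ENSG00000258922, MIRLET7IHG, ENSG00000291073, LINC02846, ENSG00000289385 and ENSG00000258314. MIRLET7IHG, the host of let-7i, had 36.7 in replicate 1 and 32.8 in replicate 2. ENSG00000289385 lay 1210 bp from the start site of HES1, a Notch target that encodes a transcriptional repressor, and had 37.4 and 24.1. ENSG00000258922 had 42.2 and 36.4, and its strongest summit was at -913 bp, upstream of the nearest lncRNA start site. Its interval reached a start site of the protein-coding gene FAM174B. SNHG3 was the only other interval among the 541 that reached a protein-coding start site, that of RCC1. Of the 25 strongest sites in each list, 15 were shared. Across the 541 sites the log2 fold enrichments of the 2 lists had a Pearson r of 0.60, a description over sites that share a control library and a calling threshold.

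**Figure D1:**
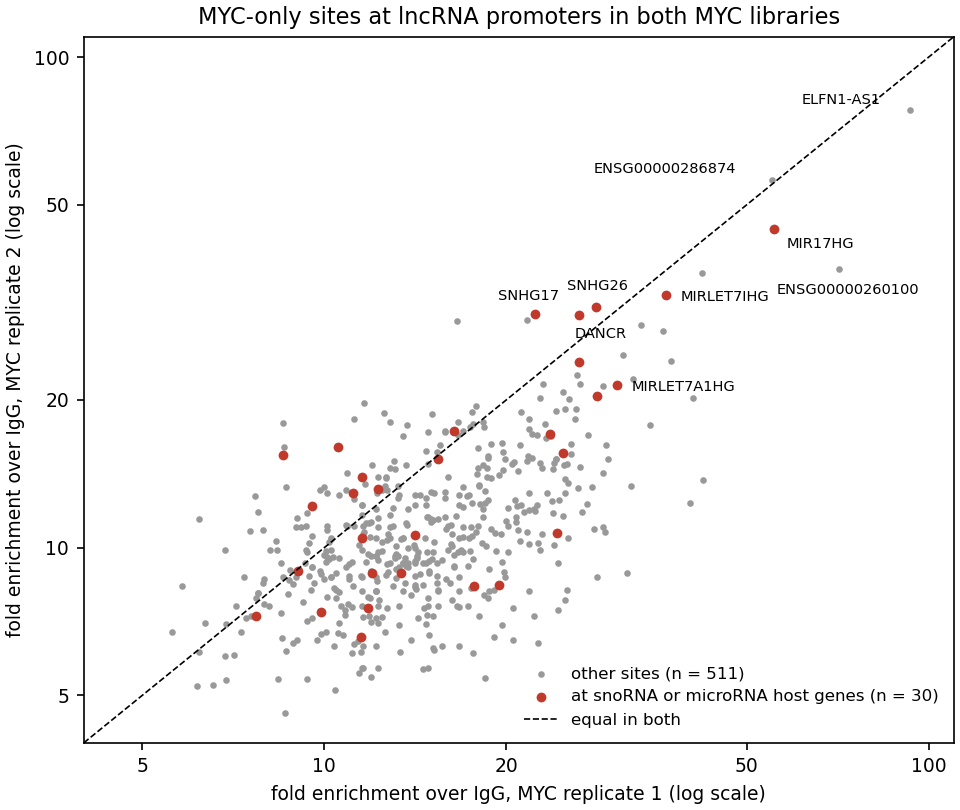
Fold enrichment over IgG of each of the 541 sites in MYC replicate 1 (x axis) and MYC replicate 2 (y axis), both on log scales, with the 30 sites at genes named as snoRNA or microRNA hosts in red and equal values on the dashed line. Most points lie below the line, ELFN1-AS1 stands at the upper end in both lists, and DANCR, SNHG17 and SNHG26 lie above the line. The 2 DANCR values come from summits 1753 bp apart.

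The ratio between the 2 libraries was not the same at every site. It exceeded 2 in favor of replicate 1 at 74 sites (13.7%), with the highest ratio, 3.57, at ENSG00000285887. The median ratio of replicate 1 over replicate 2 was 1.37, compared with 1.39 at all MYC sites. Only ENSG00000278546 was more than 2-fold higher in replicate 2, at 8.54 in replicate 1 and 18.0 in replicate 2. Replicate summits were a median of 72 bp apart, and at 57.7% of sites they were within 100 bp of each other. At DANCR they were 1753 bp apart, the largest gap of all, because the merged interval chr4:52711976-52715485 held 2 peaks of replicate 1.

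Fold enrichment of these sites was close to that of other MYC-only sites. In replicate 1 the median was 14.3, compared with 15.0 at 5818 MYC-only sites of protein-coding promoters and 14.0 at 2318 distal MYC-only sites, which lay over 1 kb from both kinds of start site. In replicate 2 the medians were 10.35, 11.3 and 9.78 in the same order. The 190 lncRNA-promoter sites that overlapped HSF1 had medians of 18.3 and 11.2. The lncRNA and protein-coding medians differed by less than the difference between the 2 MYC lists. No test was made, since sites within a library are not replicates and each factor had 2 libraries.

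Closeness to a lncRNA start site was partly fixed by the rule, which kept midpoints within 1 kb of one, so the following positions are a description. The strongest summit was a median of 166 bp from the nearest lncRNA start site, and 66.4% of summits (95% Wilson interval, 62.3 to 70.2) were within 250 bp. The merged interval, with a median width of 749 bp, covered a lncRNA start site at 422 of 541 sites (78.0%). The summit was upstream of the start site at 46.9% of sites (42.8 to 51.2), an interval that includes equal shares on both sides. With the list of MYC replicate 2 alone it was 42.72%. Protein-coding promoters bound by MYC only had their summits upstream at 51.3% of sites and a median of 122 bp from the protein-coding start site. The Wilson intervals in this text cover counting error only.

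**Figure D2:**
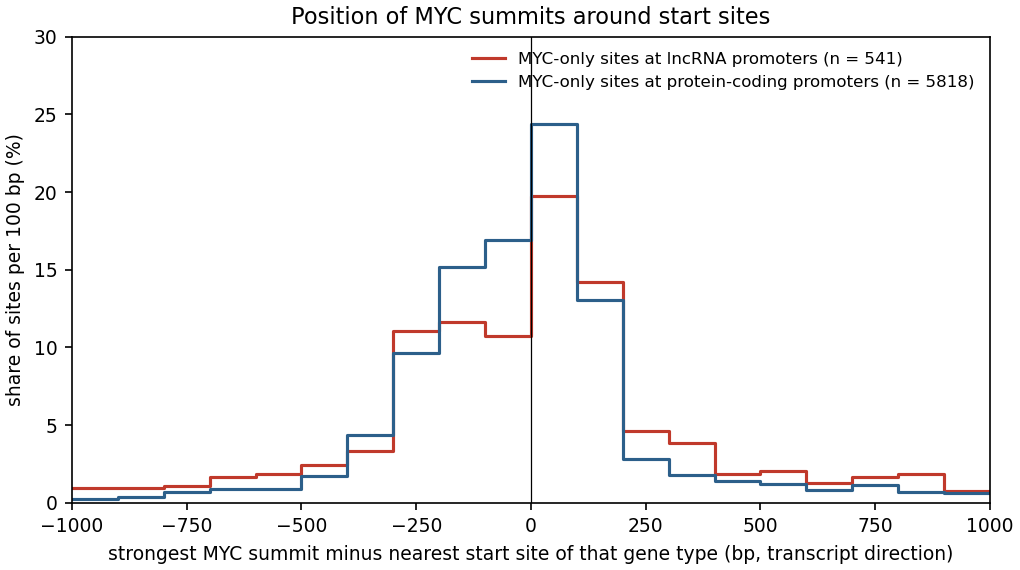
Share of sites per 100 bp (y axis) by the position of the strongest MYC summit relative to the nearest start site of that gene type in transcript direction (x axis, bp), for the 541 lncRNA-promoter sites and the 5818 protein-coding promoter sites bound by MYC only. Both peak in the first 100 bp downstream of the start site, at 19.8% of lncRNA-promoter sites, and fall beyond about 300 bp upstream and 200 bp downstream.

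The rule removed every site with its midpoint within 1 kb of a protein-coding start site, so the distances to such sites are a description too. The strongest summit still lay within 1 kb of a protein-coding start site at 5 of the 541 sites. The distance from the midpoint to the nearest protein-coding start site had a median of 21930 bp and exceeded 10 kb for 350 sites (64.7%), compared with 56.3% of distal MYC-only sites. By position, 325 sites (60.1%) lay outside protein-coding genes and over 10 kb from their start sites, 75 (13.9%) were antisense within a protein-coding gene, 48 (8.87%) were divergent from a protein-coding start site within 10 kb, 25 (4.62%) lay in sense within a protein-coding gene and 68 (12.6%) were other sites within 10 kb. Median fold enrichment in replicate 1 ranged from 14.1 to 15.1 over these 5 positions and in replicate 2 from 9.81 to 11.6. Binding strength thus varied little with position, whereas base composition varied more, as 81.2% of divergent sites but 48.0% of sense sites were CpG-rich.

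The sites were intermediate in CpG content between protein-coding promoters and distal sites. A summit was called CpG-rich when the sequence within 150 bp on either side had over 50% GC and an observed over expected CpG ratio over 0.6, as in CpG islands, the unmethylated CpG clusters of many promoters. This held for 346 of the 541 sites (64.0%, interval 59.8 to 67.9), for 84.0% of protein-coding promoter sites (83.0 to 84.9), for 22.6% of distal sites (21.0 to 24.4) and for 42.6% of the lncRNA-promoter sites with HSF1 (35.8 to 49.7). These intervals cover counting error over sites and do not measure the spread between libraries. With the list of MYC replicate 1 alone, the rule gave 1150 sites, of which 47.57% were CpG-rich. Of all 11756 MYC sites, 60.6% were CpG-rich, close to the share of the 541 sites. Over all annotated start sites regardless of MYC, 27.4% of lncRNA and 46.5% of protein-coding windows were CpG-rich. CpG-rich and other members had nearly equal median fold enrichment, at 14.2 and 14.8 in replicate 1 and at 10.5 and 9.89 in replicate 2.

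Of the other short elements, the GC box followed the same order of classes and the AP-1 element the reverse order. All motifs were searched on both strands within 100 bp on either side of the strongest summit. The GC box GGGCGG, bound by SP family factors, was present at 42.0% of sites (37.9 to 46.2), at 54.0% of protein-coding promoter sites and at 21.2% of distal sites, compared with 21.2% of all lncRNA start sites. Of all MYC sites, 41.9% held the GC box, near the share of the 541 sites. The AP-1 element TGANTCA, bound by FOS and JUN, was present at 7.76% of sites (5.80 to 10.3), 2.77% of protein-coding promoter sites, 16.6% of distal sites and 15.8% of lncRNA-promoter sites with HSF1, compared with 6.71% of all lncRNA start sites. Around replicate 2 summits the AP-1 share of the 541 sites was 3.88%, and around replicate 1 summits it was 8.32%. Within the 541 sites the AP-1 element was present at 2.02% of CpG-rich summits and 17.95% of the others, and the GC box at 53.8% and 21.0%. The TATA box TATAAA was present at 2.40% of sites and 8.80% of lncRNA start sites, and the CCAAT box at 17.6% and 25.2%. A match is a description of the letters, and it does not show that the factor was bound.

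**Figure D3:**
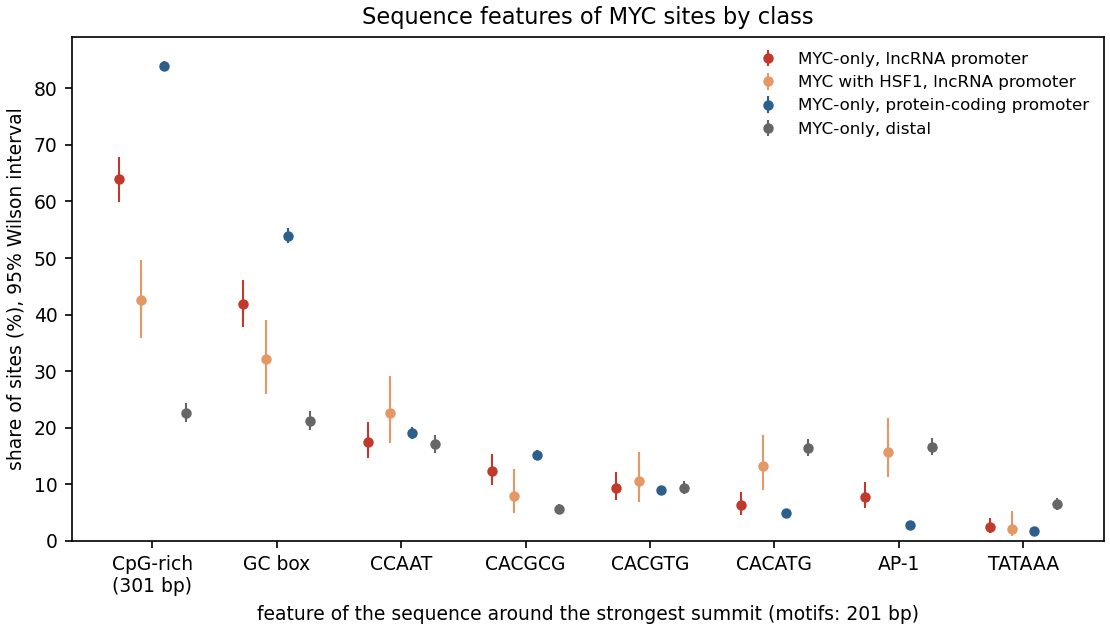
Share of sites (y axis, percent, with 95% Wilson intervals) that were CpG-rich or held a motif around the strongest summit (x axis), for MYC-only and HSF1-overlapping lncRNA-promoter sites and for MYC-only protein-coding promoter and distal sites. CpG-rich, GC box and CACGCG shares of the MYC-only lncRNA-promoter sites lie between those of the protein-coding promoter and distal sites, and CACGTG shares are similar in all 4 classes.

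The share of sites with the canonical E-box was close to that of other MYC-only sites around the strongest summits. Around replicate 2 summits it was higher than that of protein-coding promoter sites. CACGTG was present within 100 bp of the strongest summit at 51 of 541 sites (9.43%, interval 7.24 to 12.2), compared with 8.94% of protein-coding promoter sites, 9.41% of distal sites and 4.23% of all lncRNA start sites. Around the summits of replicate 1 it was 9.98%, compared with 9.35% of protein-coding promoter sites and 9.53% of distal sites. Around those of replicate 2 it was 10.35% (8.06 to 13.2), compared with 7.12% of protein-coding promoter sites (6.48 to 7.81). Distal sites had 8.46% (7.39 to 9.66) there, an interval that overlapped that of the 541 sites. Of the non-canonical E-boxes, CACGCG was present at 12.4% of sites (9.87 to 15.4) and 5.57% of distal sites, and CACATG at 6.28% (4.53 to 8.65) and 16.4%. CACGAG was present at 9.06% and CATGCG at 5.55% (3.91 to 7.81). Of all lncRNA start sites, 5.32% held CACGCG, 11.05% CACATG, 5.16% CACGAG and 4.72% CATGCG. The CATGCG share was thus near that of all lncRNA start sites, and the CACATG share was below it. Any of these 5 elements was present at 36.2% of sites, 36.0% of protein-coding promoter sites and 36.8% of distal sites. CACGCG thus followed the CpG-rich classes and CACATG the distal class, while their union hardly varied.

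E-boxes were sparse at the summit itself and most frequent some distance from it. Within 50 bp of the strongest summit the 541 sites held 17 copies of CACGTG, or 3.14 per 100 sites, and at 75 to 175 bp they held 103 copies, or 9.52 per 100 sites and 50 bp. At 400 to 500 bp the density was 2.59 per 100 sites and 50 bp. Both libraries gave this shape, with 3.51 and 3.70 per 100 sites within 50 bp of the summits of replicates 1 and 2 and with 8.96 and 7.86 at 75 to 175 bp. Protein-coding promoter sites had 2.80 and 8.58 at the same distances and distal sites 2.29 and 10.2. Widening the window to 250 bp either side of the summit raised the share of sites with CACGTG to 26.2% (22.7 to 30.1), compared with 24.9% of protein-coding promoter sites, 26.6% of distal sites and 8.77% of all lncRNA start sites. At 6 of the 10 strongest sites the nearest E-box lay at such a distance, with its first base 105 bp from the summit at ELFN1-AS1, 101 bp at ENSG00000286874, 145 bp at ENSG00000260100, 123 bp at ENSG00000258922, 141 bp at MIRLET7IHG and 135 bp at ENSG00000289385. At the other 4 it was farther away, at 217 bp for ENSG00000291073, 478 bp for MIR17HG, 768 bp for LINC02846 and 872 bp for ENSG00000258314. The most E-boxes in an interval, 4, were found at ELFN1-AS1, at ENSG00000271192, which had a fold enrichment of 23.014 in replicate 1 and 21.6 in replicate 2, and at LINC01237, which had 7.68 and 12.7.

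E-boxes were more frequent at the more strongly enriched sites. When the 541 sites were divided into 4 groups of near equal size by mean fold enrichment, CACGTG was present within 250 bp of the summit at 18 of 135 sites in the lowest group (13.3%, interval 8.60 to 20.1), then at 25.9%, 30.4% and 35.3% (27.8 to 43.6) in the next ones. Ranked by replicate 1 alone, the lowest and highest groups had 14.8% and 39.0%, and ranked by replicate 2 alone they had 27 of 135 sites and 51 of 136 sites. In protein-coding promoter sites the lowest and highest groups by the mean had 12.6% and 43.6%, and in distal sites 15.4% and 41.9%. The share of CpG-rich summits in the 541 sites was between 62.2% and 65.4% over the groups by the mean, and between 62.5% and 65.9% over those by replicate 1. Ranked by replicate 2, it was 58.5% in the lowest group and 68.4% in the highest. All 10 strongest sites held an E-box somewhere in the interval, as did 21 of the strongest 25 and 167 of all 541 (30.9%). Stronger intervals were also wider, with a median of 1050 bp in the highest group and 628 bp in the lowest, and a wider interval holds more sequence in which an E-box can occur, which the fixed window avoids. These shares describe these libraries, and no test was made of them.

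**Figure D4:**
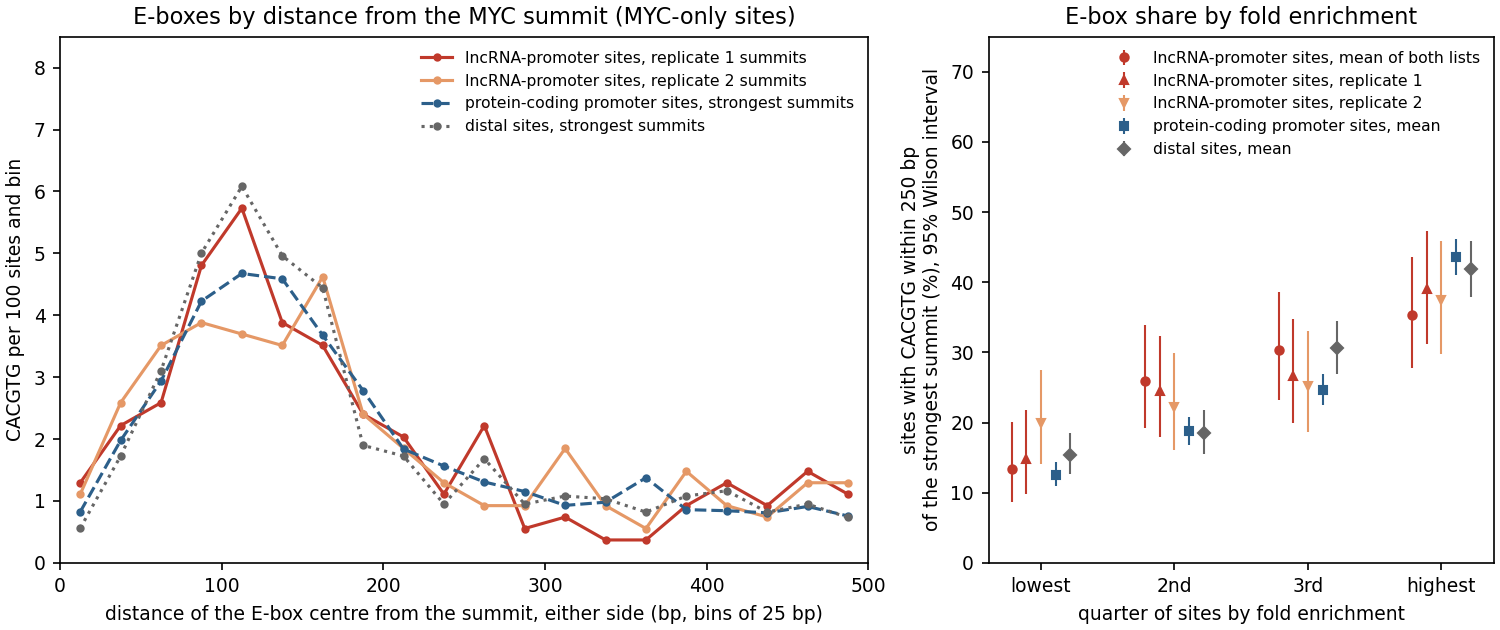
Left, copies of CACGTG per 100 sites in 25-bp bins (y axis) by distance from the summit on either side (x axis, bp), around replicate 1 and replicate 2 summits of the 541 lncRNA-promoter sites and around the strongest summits of protein-coding promoter and distal MYC-only sites; right, share of sites with CACGTG within 250 bp of the strongest summit (percent, 95% Wilson intervals) in the 4 groups by fold enrichment. The curves rise from the summit to about 75 to 175 bp and fall again, and the shares rise from the lowest to the highest group.

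By the form of their names, 268 of the 541 sites were nearest to lncRNA genes without a symbol, 112 to LINC genes, 55 to antisense (AS) genes, 30 to genes named as snoRNA or microRNA hosts and 75 to other named genes. One site, at NIPBL-DT, was nearest to a divergent transcript (DT), with a fold enrichment of 8.10 in replicate 1 and 7.62 in replicate 2. Divergent transcripts start next to a protein-coding promoter and are left out by the rule, and 55.5% of all 589 DT genes had a MYC site of any class. The list of host genes was chosen with earlier results of these data known. Among host genes, 25 of 116 (21.6%) had one of the 541 sites near a start site, compared with 127 of 2265 LINC genes (5.61%), 57 of 1840 AS genes (3.10%) and 3.23% of all lncRNA genes. Of the other host genes, 14 had a MYC site near a protein-coding start site, of which those of GAS5, MIR22HG, MIR378D2HG and MIR4453HG also overlapped HSF1. A further 6 were left out for HSF1 alone, 13 had a peak in replicate 1 alone and 56 had none. A MYC site of any class was found at 38.8% of host genes, 8.48% of LINC genes, 25.7% of AS genes and 13.4% of all lncRNA genes. The strongest LINC site was at LINC02846, with 33.4 and 28.4, and the strongest among other symbols was at RENO1, with 25.4 and 20.1.

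The host genes of snoRNAs included several of the strongest sites. SNHG26, which holds SNORD93, had a fold enrichment of 28.2 in replicate 1 and 30.9 in replicate 2. DANCR, which holds SNORA26 and MIR4449 and is studied as an oncogenic lncRNA, had 26.4 and 29.8. SNHG17, which holds 5 SNORA71 genes, had 22.3 and 29.9, and SNHG7, which holds SNORA17 genes, had 26.4 and 23.9. SNHG26, DANCR and SNHG17 were higher in replicate 2, which was the case at 10 of 30 host sites and at 90 of the other 511. The 2 DANCR values came from summits 1753 bp apart within the merged interval, so they do not compare the same position. SNHG25, SNHG16, EPB41L4A-AS1, SNHG3, ULK4P3, SNHG29, SNHG32, SNHG6 and SNHG12 ranged from 8.54 to 24.8 in replicate 1 and from 6.59 to 16.1 in replicate 2. In total, 14 of the 541 sites were nearest to 13 lncRNA genes that held 32 annotated snoRNA genes on the same strand. Of all 84 lncRNA genes that held a snoRNA, 14 (16.7%) had one of the 541 sites at a start site and 31 (36.9%) had a MYC site of any class, compared with 3.23% and 13.4% of all lncRNA genes.

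**Figure D5:**
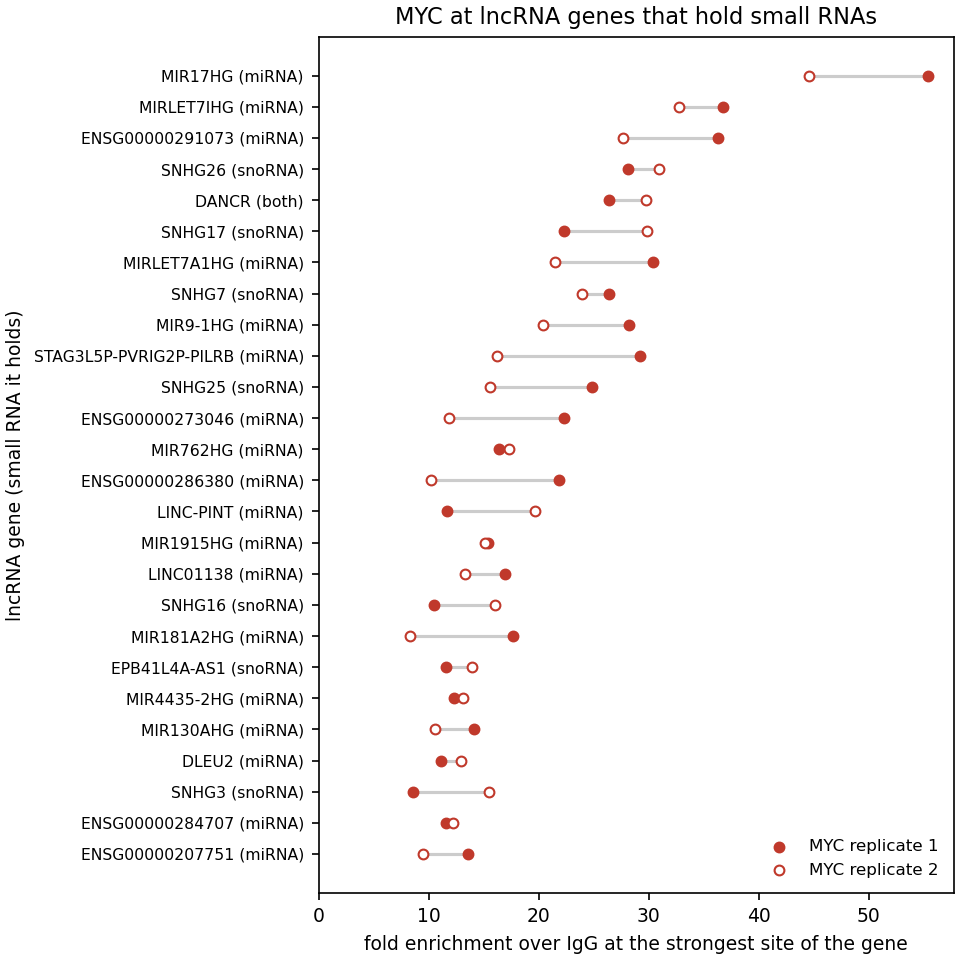
Fold enrichment over IgG (x axis) in MYC replicate 1 (filled) and MYC replicate 2 (open) at the strongest site of the 26 most enriched lncRNA genes that hold a microRNA or snoRNA gene (y axis). MIR17HG is highest in both libraries, at 55.4 and 44.6, and SNHG26, DANCR and SNHG17 are higher in replicate 2. The 2 DANCR values come from summits 1753 bp apart.

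MicroRNA-holding lncRNA genes accounted for 34 of the 541 sites, at 25 genes that held 41 microRNA genes. Of all 189 lncRNA genes that held a microRNA, 26 (13.8%) had one of the 541 sites at a start site, compared with 3.23% of all lncRNA genes. A MYC site of any class was found at 50 (26.5%), compared with 13.4%. Such a start site need not be that of the microRNA. The hairpin of MIR4449 in DANCR was at -957 bp, upstream of it, and that of miR-29a in LINC-PINT was up to 231111 bp downstream. MIR17HG had 2 of the 541 sites. The stronger had 55.4 in replicate 1 and 44.6 in replicate 2, with the miR-17 hairpin starting 1496 bp downstream of the nearest lncRNA start site, and the weaker, chr13:91346925-91347958, had 24.3 and 10.7. MIRLET7IHG, MIRLET7A1HG and MIRLET7BHG host members of the let-7 family, which act as tumor suppressors in several tissues. MIRLET7A1HG had 30.4 and 21.5, and the stronger site of MIRLET7BHG had 11.8 and 7.55. MIR155HG, the host of miR-155, had 23.6 and 17.1 and is not counted among the 25 genes, which were taken from the RefSeq sequences used here. MIR9-1HG had 28.2 and 20.4, and a second site of that gene had 19.5 and 8.38. DLEU2, the host of miR-15a and miR-16, which are deleted in chronic lymphocytic leukemia, had 11.2 and 12.9, and the miR-15a hairpin lay 76186 bp downstream of the start site. By the mean of both lists the order was MIR17HG, MIRLET7IHG, MIRLET7A1HG, MIR9-1HG, MIR155HG, DLEU2 and MIRLET7BHG. The 2 lists gave DLEU2 and MIRLET7BHG in opposite orders, and likewise MIRLET7A1HG and MIR9-1HG differed by less than each differed between libraries.

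The mature sequences of these microRNAs are shown to group them by their seed, bases 2 to 8, which pairs with target transcripts. They were taken from RefSeq for GRCh38.p14 and are written with the seed in capitals.
hsa-let-7a-5p: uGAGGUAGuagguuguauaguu
hsa-let-7b-5p: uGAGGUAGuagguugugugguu
hsa-let-7d-5p: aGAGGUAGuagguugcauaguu
hsa-let-7f-5p: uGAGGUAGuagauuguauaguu
hsa-let-7i-5p: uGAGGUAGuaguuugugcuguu
hsa-miR-17-5p: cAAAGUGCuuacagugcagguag
hsa-miR-20a-5p: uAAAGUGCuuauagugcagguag
hsa-miR-18a-5p: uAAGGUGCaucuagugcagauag
hsa-miR-19a-3p: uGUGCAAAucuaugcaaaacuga
hsa-miR-19b-3p: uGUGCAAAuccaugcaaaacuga
hsa-miR-92a-3p: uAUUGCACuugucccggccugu
hsa-miR-92b-3p: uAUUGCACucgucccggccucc
hsa-miR-15a-5p: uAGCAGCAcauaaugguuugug
hsa-miR-16-5p: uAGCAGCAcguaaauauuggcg

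The 41 microRNA genes gave 70 mature sequences with 57 different seeds, and 4 seeds occurred in more than 1 host. Not every arm of these microRNAs was in the sequences used here, so the numbers of seeds are minimums. The let-7 seed GAGGUAG was shared by MIRLET7A1HG, MIRLET7BHG and MIRLET7IHG, and the let-7 passenger-strand seed UAUACAA by MIRLET7A1HG and MIRLET7BHG. The seed AUUGCAC occurred in miR-92a of MIR17HG and in miR-92b of THBS3-AS1, whose site had 13.6 in replicate 1 and 9.19 in replicate 2. The seed of miR-4435, UGGCCAG, occurred in CYTOR and MIR4435-2HG, which hold copies of the same microRNA. Within MIR17HG alone, miR-17 and miR-20a shared AAAGUGC and miR-19a and miR-19b shared GUGCAAA.

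Across all lncRNA genes, 3.23% had one of the 541 sites and 13.4% a MYC site of any class. The 2 lists of named lncRNAs, like the list of host genes, were chosen with earlier results of these data known. Of 14 annotated lncRNA genes with a known link to MYC, 6 had one of the 541 sites, namely ELFN1-AS1, MIR17HG, DANCR, DLEU2, MINCR and PVT1. MINCR, a lncRNA induced by MYC, had 10.8 in replicate 1 and 7.29 in replicate 2. PVT1, the neighbor of the MYC gene on chromosome 8, had 2 such sites at internal start sites, with 10.1 and 7.93 at the stronger one. MINCR and PVT1 were below the median of the 541 sites in both lists. PCAT1 and VPS9D1-AS1 had MYC sites that were left out for a protein-coding start site within 1 kb, SNHG15 for HSF1, and GAS5 and DDX11-AS1 for both. H19 and MYCNOS had no peak midpoint within 1 kb of a start site in either MYC list at this depth and threshold. Of 43 annotated lncRNA genes often studied in cancer, 6 had one of the 541 sites, namely LINC-PINT, CRNDE, KCNQ1OT1, FTX, PCAT7 and CYTOR. LINC-PINT, a p53-induced transcript that also holds miR-29a and miR-29b, had 4 sites, the most of any gene, with 11.7 and 19.7 at the strongest. CRNDE had 16.7 and 9.79, and KCNQ1OT1, the imprinted antisense transcript of KCNQ1, had 15.4 and 8.76. A further 13 genes of this list, NEAT1 among them, had a peak midpoint within 1 kb of a start site in replicate 1 alone. The paper names NEAT1 as a target of both HSF1 and MYC. Peaks farther from its start sites were not counted here.

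HSF1 peaks were seldom near these sites, as the rule partly fixed. The nearest HSF1 peak was a median of 57460 bp away. It was within 1 kb of 18 sites (3.33%) and within 10 kb of 94 (17.4%). At MYC-only protein-coding promoter sites the median was 76890 bp, and the shares were 2.18% and 12.2%. Distal MYC-only sites had a median of 39640 bp and shares of 3.75% and 24.4%. The 541 sites thus lay between these classes. A heat shock element of 3 alternating GAA units was present at 1 of 541 summits, at LINC00887, with 15.4 in MYC replicate 1 and 8.21 in MYC replicate 2. It was present at 2 of the 190 sites that overlapped HSF1 and at 0.384% of all lncRNA start sites. Before the HSF1 calls were applied, 190 of 731 lncRNA-promoter MYC sites (25.99%, interval 22.9 to 29.3) overlapped HSF1, compared with 20.5% of 7316 protein-coding promoter sites and 37.5% of 3709 distal sites. The strongest sites left out for HSF1 were at ZFAS1 (53.2 and 49.3 for MYC), a snoRNA host, at ENSG00000229912 (55.2 and 23.3) and at SNHG15 (38.5 and 37.3). Each of these was called for HSF1 in 1 of the 2 HSF1 lists, with an HSF1 fold enrichment of 9.56 at ZFAS1, 4.56 at ENSG00000229912 and 4.29 at SNHG15.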

How the data were processed

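CUT&RUN was performed by the study's authors with the CUTANA kit on OVCAR8 cells fixed briefly in formaldehyde, with 2 HSF1, 2 MYC and 1 IgG library. Reads were aligned by the authors to GRCh38/hg38 with Bowtie 2. The submitters' processing notes also name bcl2fastq 2.20.0, SAMtools and bedtools. Peaks were called with MACS 2.2.9.1 on each library against IgG, with a p-value cutoff of 1e-04 (HSF1) or 1e-10 (MYC). The IgG library has no list here, and the file headers number it as a second replicate while the labels list 1 IgG control. For each peak the authors deposited the summit, the pileup (a signal), the −log10 p-value and the fold enrichment, which is a ratio of the pileup over local background. q-values were not calculated. No read counts were given, so no count model was fitted and no p-value was computed.

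The members and gene lists were chosen with earlier results of these data known. Start sites are those of every transcript in GENCODE 44. Where an interval held several peaks of a library, the one with the highest fold enrichment gave its value and summit, and the strongest summit is that of the library with the higher value. A CpG-rich window has over 50% GC and a CpG ratio over 0.6, in 301 bp around summits and in 201 bp around annotated start sites. Named sites are the 10 with the highest mean fold enrichment, those nearest to a gene of the fixed lists, the strongest of each symbol class, the 5 with the most E-boxes, those at the limits of the rule and the 3 strongest left out for HSF1. The sites at ENSG00000285887, ENSG00000278546, LINC00887, ULK4P3 and THBS3-AS1 were added once their values had been seen. The lists, overlaps and motifs were handled in Python 3.11.15 with pandas 2.3.3, numpy 2.4.6, scipy 1.17.1 and pysam 0.24.0, figures were drawn with matplotlib 3.10.9, and the steps were tested on simulated data. Alternatives covered how the lists were combined, each library left out, stricter thresholds, other distances, start sites and motif windows. Shares have 95% Wilson intervals for counting error only, and a site missing from a list was not called at that depth.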

Additional observations from a re-analysis of the deposited data

How the results depend on the processing

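No paired analysis was possible because the results are counts, shares and medians over sites and come from no test. Requiring a peak in either MYC list rather than both gave 1178 sites, with CACGTG within 100 bp of the summit at 7.81% and CpG-rich summits at 47.88%. Requiring a MYC p-value of at most 1e-20 gave 303 sites with an E-box share of 11.55%. The number of sites ranged from 605 to 1150 when 1 library was left out, from 615 without HSF1 replicate 1 and 605 without HSF1 replicate 2 to 632 without MYC replicate 1 and 1150 without MYC replicate 2. Over these same 4 settings the E-box share ranged from 8.174% to 9.587%, the median distance from summit to start site from 163 to 188.5 bp, the CpG-rich share from 47.57% to 62.31% and the share of upstream summits from 42.72% to 49.74%. The CpG-rich share of 47.57% was that without MYC replicate 2.

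The E-box share of the 541 sites was 3.142% within 50 bp, 26.25% within 250 bp and 30.87% over the whole interval, since a longer sequence can hold more E-boxes. The median distance to the start site was 145 bp with a 500 bp window, 202 bp with a 2 kb window, 216.5 bp with gene starts only and 200 bp with basic transcripts only. The share of upstream summits was lowest, at 42.72%, without MYC replicate 1 and stayed below 50% in all 14 alternatives. The cause of the other shifts was not tested. With 1 IgG library and 2 libraries per factor, the spread of fold enrichment between cultures is unknown.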
